A study of Mus musculus with 20 samples.

Results

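Cells carry several ways of mending damaged DNA, and 45 genes of these pathways are described here out of the 55335 genes in the expression files. The list was drawn up by name, with a rule that uses no measured value. Earlier results of these data were known when it was chosen. The list holds 13 genes of homologous recombination, 11 of the Fanconi anaemia pathway, 7 of nucleotide excision repair, 8 of base excision repair and DNA ligation, 4 of end joining and 2 of translesion synthesis. All 45 were found in the files, and 44 were expressed highly enough to be tested.

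Expression was measured by RNA sequencing of whole tumours grown in mice from CT26, a mouse colon carcinoma line. The 20 tumours fall into 4 groups of 5: vector cells treated with PBS, vector cells treated with an antibody against PD-1, POLE-mutant cells treated with PBS, and POLE-mutant cells treated with the antibody. POLE makes up the catalytic part of the replicative polymerase epsilon, and PD-1 is an inhibitory receptor of T cells. The title of the series names CHEK2 instead, so the mutant cells are called mutant below. The labels leave out the mutation, the vector, the dose and timing of the antibody, and the age and strain of the mice. Nor is it said whether the mutant cells are 1 clone, so mutant and clone cannot be told apart.

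Homologous recombination copies a broken DNA end from the sister chromatid and so works in cells that are replicating their DNA, whereas end joining ligates broken ends directly at any stage of the cell cycle. The Fanconi anaemia proteins detect and unhook crosslinks between the strands and hand the break to recombination. Nucleotide excision cuts out bulky lesions such as those made by ultraviolet light, base excision replaces single oxidised or deaminated bases, and translesion polymerases copy past lesions that stop the replicative polymerases.

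Values are FPKM, fragments scaled for transcript length and library size, and read depth is unknown. Totals ran from 328740 to 566913 FPKM per library, and the highest was vector anti-PD-1 replicate 1. That library and mutant anti-PD-1 replicates 1 and 2 stood apart, with the lowest mean correlations to the others. Vector anti-PD-1 replicate 1 also had the lowest mitochondrial share, 2.85% of FPKM against 6.43 to 11.1% in the rest, and the fewest genes at 1 FPKM or more, 11182 against 12474 to 13769. Of the 45 repair genes, 21 had their lowest level in vector anti-PD-1 replicate 1 and 17 in mutant anti-PD-1 replicate 1. How many of all genes were lowest in these libraries was not counted, so this may not be particular to repair genes. The part of these library differences in the repair gene values was not tested. The log2 difference of Pole, mutant minus vector averaged over the treatments, was -0.78 ± 0.13 (SE, adjusted p = 0.000332 in limma). Chek2 differed by -0.04 (adjusted p = 0.81), and Pole under PBS alone by -0.62 (adjusted p = 0.12). A transcript level cannot show which gene carries a mutation, so these values do not settle whether the title or the labels are right. T cell markers rose in mutant tumours under anti-PD-1, in 10 of 10 genes, and their summed level ran from 131 to 229 FPKM against 2.76 to 69.3 in mutant PBS tumours. Of 8 epithelial markers, only Krt8, Krt18 and Krt19 reached the level for testing, and Epcam stayed at or below 0.84 FPKM in every tumour.

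Levels of the repair genes differed widely. Over the 20 tumours 3 genes averaged above 20 FPKM, 14 from 5 to 20 and 28 below 5. Ercc1, the partner of the XPF nuclease, was the most abundant at 51.8 ± 18.5 FPKM, ahead of Apex1, the main endonuclease at sites that have lost a base, at 32.1 ± 9.01, and the replicative DNA ligase Lig1 at 25.1 ± 5.18 (SD over 20 tumours). Ercc3, a helicase of the TFIIH complex, followed at 19.6 ± 3.99 FPKM. The MRN complex, which binds broken ends first, was expressed at similar levels. Nbn was at 11.98 ± 2.04, Mre11a at 11.0 ± 2.37 and Rad50 at 9.96 ± 1.99 FPKM, and their differences within tumours were not tested. The Ku70 gene Xrcc6, at 11.3 ± 2.75 FPKM, lay in the same range. At the low end were Palb2, the bridge between BRCA1 and BRCA2, at 1.47 ± 0.291 FPKM, Fancm at 1.40 ± 0.414 and Rad51b at 1.07 ± 0.241. Fancc, a core complex gene at 0.747 ± 0.193 FPKM, stayed under 1 FPKM in all 20 tumours and was not tested.

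Mutant and vector tumours were first compared without antibody. Of the 44 tested repair genes 0 passed the threshold, an adjusted p under 0.05 in limma, where 1.45% of all tested genes did (0.529% higher, 0.923% lower), and 1 repair gene had an unadjusted p under 0.05. The median log2 fold change of the repair genes was -0.06, beside 0.00 over all genes. Single values ran from -0.29 in Fancf, the adaptor of the Fanconi core complex, to 0.37 in Ercc3. Ercc3 measured 23.7 ± 1.22 FPKM in mutant and 18.3 ± 2.81 in vector PBS tumours (SD, n = 5), with no overlap. Here and below, how many of all tested genes also had no overlap was not counted. The change of Ercc3 was 0.37 ± 0.15 (SE, adjusted p = 0.316) and did not pass. Without the 3 libraries that stood apart, Ercc3 was the 1 repair gene past the threshold. Ercc1 stood at 68.9 ± 13.7 and 53.1 ± 5.45 FPKM, a difference of 0.35 (adjusted p = 0.766).

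Anti-PD-1 was next compared with PBS in vector tumours. limma called 0 of 44 repair genes and 0% of all tested genes, with 1 repair gene at an unadjusted p under 0.05. The estimates were nonetheless mostly negative, in 38 of 44 repair genes, with a median of -0.18 beside -0.08 over all genes. Without vector anti-PD-1 replicate 1 the medians were -0.06 and 0.00. In that library the ligase genes Lig3, at 0.363 FPKM, and Lig4, at 0.815, lay below every other tumour.

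In mutant tumours anti-PD-1 went with lower expression of 11 repair genes and with higher expression of none. These were Ercc1, Apex1, Xrcc6, Fancd2, Brca2, Fancf, Mre11a, Xrcc4, Ung, Xrcc2 and Xrcc1, and they came from 5 of the 6 pathways. The 11 genes are 25% of the 44 tested, beside 14.6% of all tested genes that were lower. In either direction 30.5% of all tested genes passed (15.9% higher), and limma called 0 repair genes higher, with 17 of 44 at an unadjusted p under 0.05 in either direction. The median log2 fold change was -0.28 over the repair genes and -0.10 over all genes, and after rescaling each library to a common median ratio these were -0.21 and -0.03. In the same comparison T cell genes rose in 10 of 10, macrophage genes in 9 of 10, fibroblast genes in 7 of 7, endothelial genes in 5 of 6, B cell genes in 3 of 3 tested, neutrophil genes in 2 of 5 and skeletal muscle genes in 1 of 12, and 1 of 3 tested epithelial genes fell. Summed macrophage markers ran from 1656 to 4251 FPKM in mutant anti-PD-1 and from 394 to 1101 in mutant PBS tumours. In the same order fibroblast markers ran from 281 to 2362 against 75.1 to 399 FPKM. Skeletal muscle markers ran from 104 to 1719 against 1.5 to 1135, and epithelial markers from 1.81 to 7.91 against 7.71 to 16. The epithelial factor gene Cdx2 was listed at 0 in every mutant anti-PD-1 tumour, but its level in the study was too low for testing. Fits with the T cell score or the skeletal muscle score as a term are given below, and no fit had a term for the other cell types. Beyond those fits, the part of this change in cell makeup in the repair gene values was not tested. In whole tumours fewer cells of a type and less RNA per cell cannot be told apart.

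**Figure D1:**
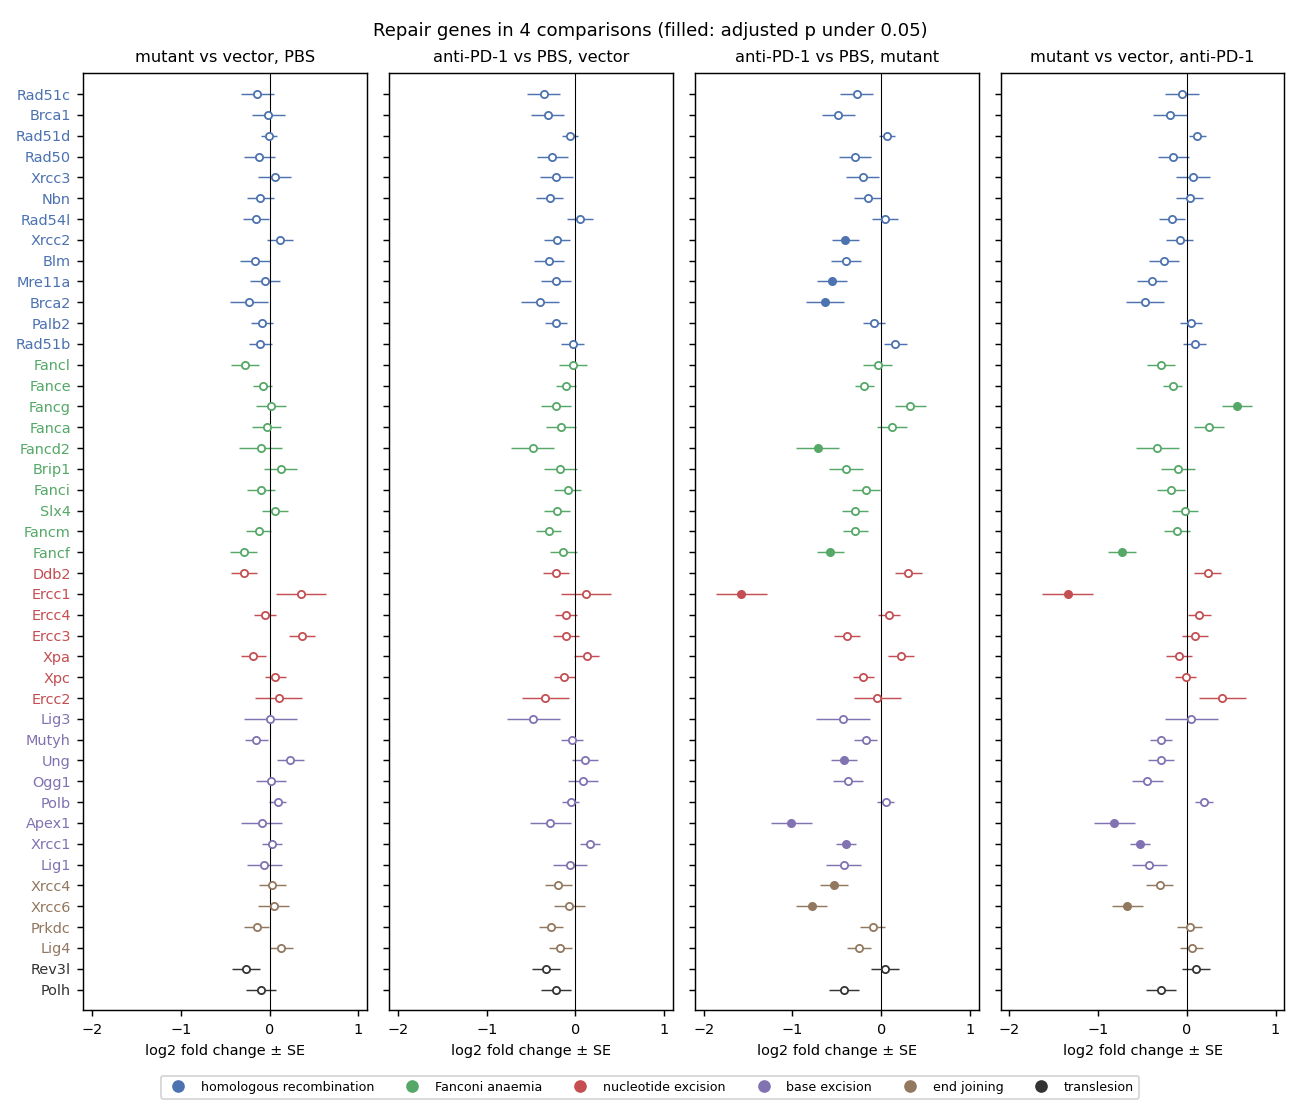
Log2 fold change of each of the 44 tested repair genes (points, with the SE as bars), coloured by pathway, in 4 comparisons. Filled points passed an adjusted p of 0.05: none in the first 2 panels, 11 to the left of zero in mutant tumours under anti-PD-1, and 5 to the left and 1 to the right between the tumour types under anti-PD-1.

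The count moved with single libraries. Here and below, counts under other settings lack the share of all tested genes unless it is stated. A change in such a count may therefore not be particular to repair genes. It was 23 (21 lower and 2 higher, Ddb2 and Fancg) without vector anti-PD-1 replicate 1, 4 without mutant anti-PD-1 replicate 1, and 7 without mutant PBS replicate 2 or 3. Titles of 11 libraries carry an animal number with an M and those of 9 a number alone, a split of unstated meaning whose term passed in 0.0429% of all tested genes (0.00715% higher, 0.0358% lower). The calls nonetheless depended on that term, and without it 6 repair genes passed. Within the M-style libraries 5 repair genes passed, all lower, and within the others 7, of which 6 lower and Ddb2 higher. Ercc1, Apex1, Xrcc6 and Xrcc4 passed within both. Among mutant anti-PD-1 tumours, however, replicates 1 and 2 were M-style and replicates 3 to 5 number-only. In that group the split therefore also parts the libraries that stood apart from the rest, and the 2 cannot be told apart.

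Ercc1 (ENSMUSG00000003549, chromosome 7, 19344778 to 19356524 on GRCm38) pairs with XPF to cut the damaged strand on the 5′ side in nucleotide excision, and also acts on crosslinks. Ercc1 measured 45.7, 59.5, 49.8, 56.5 and 53.9 FPKM in vector tumours given PBS and 63.9, 58.7, 58, 49.9 and 57.7 in those given anti-PD-1, and 80.1, 78.8, 46.6, 65.5 and 73.5 in mutant tumours given PBS and 7.78, 17.3, 44.1, 41.7 and 27.4 in those given anti-PD-1. Values are listed in the order of replicates 1 to 5 here and below. The 5 mutant anti-PD-1 tumours all lay below every other tumour of the study, with replicates 1 and 2 the lowest. The fall from mutant PBS tumours was -1.58 ± 0.29 (SE, adjusted p = 0.000557), a mean of 68.9 ± 13.7 against 27.6 ± 15.6 FPKM (SD, n = 5). It measured -2.41 within the M-style libraries, -0.89 within the others and -0.91 without the 3 libraries that stood apart, and passed in each. In vector tumours the estimate for Ercc1 was 0.12 (adjusted p = 0.879). Ercc1 shares 511 bases with Cd3eap on the opposite strand, and since strand use in counting is not stated, reads there cannot be told apart. The mean of Cd3eap in mutant tumours was 17 FPKM under PBS and 10.4 FPKM under the antibody. The same limit holds for other repair genes. In all, 19 share bases with a coding gene on the opposite strand, among them Apex1, Xrcc6, Mre11a, Fancf, Xrcc4 and Fancd2.

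Of the 7 genes of nucleotide excision Ercc1 alone passed in mutant tumours, and the median of the 7 was -0.04. The nuclease partner Ercc4, which encodes XPF, was at 0.09 (adjusted p = 0.624). Estimates for the lesion sensors pointed both ways, with Ddb2 at 0.31 (adjusted p = 0.127) and Xpc at -0.20 (adjusted p = 0.21). The scaffold gene Xpa was at 0.22 (adjusted p = 0.26), and the TFIIH helicases were at -0.38 (adjusted p = 0.0585) for Ercc3 and -0.04 (adjusted p = 0.925) for Ercc2. None of these 6 values passed.

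Base excision and ligation had 3 of 8 genes lower. Apex1 measured 36, 39.7, 41.7, 40.4 and 36.8 FPKM in vector tumours given PBS and 24.6, 31, 30.8, 36.6 and 37.5 in those given anti-PD-1, and 33, 39.3, 32.5, 36.1 and 42.6 in mutant tumours given PBS and 6.93, 17.7, 24.7, 21.9 and 31.6 in those given anti-PD-1. Mutant anti-PD-1 tumours lay below all mutant PBS tumours, with replicate 1 far under the rest. Apex1 (ENSMUSG00000035960, chromosome 14, 50924968 to 50927139) fell by 1.01 ± 0.23 (SE, adjusted p = 0.00339) on the log2 scale. It also shares bases with a neighbour on the opposite strand, Pip4p1, whose means in mutant tumours were 9.87 FPKM under PBS and 11.1 FPKM under the antibody.

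Xrcc1 encodes the scaffold that holds the ligase and polymerase at a single-strand break. Xrcc1 measured 8.36, 8.44, 7.7, 8.54 and 8.45 FPKM in vector tumours given PBS and 12.2, 7.99, 8.84, 9.07 and 9.45 in those given anti-PD-1, and 7.68, 8.05, 8.09, 9.73 and 8.99 in mutant tumours given PBS and 4.74, 5.93, 7.01, 6.81 and 7.69 in those given anti-PD-1. Every mutant anti-PD-1 tumour lay below every vector anti-PD-1 tumour, and the mutant groups met only at 7.69 and 7.68 FPKM. The change from mutant PBS tumours was -0.39 ± 0.11 (SE, adjusted p = 0.0149), which did not pass after median-ratio rescaling (adjusted p = 0.191) or without mutant anti-PD-1 replicate 1 (adjusted p = 0.0623).

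Ung removes uracil from DNA. Ung measured 2.85, 2.13, 1.92, 2.38 and 2.02 FPKM in vector tumours given PBS and 3.08, 1.83, 1.75, 3.61 and 2.54 in those given anti-PD-1, and 2.86, 2.4, 2.77, 2.71 and 3.39 in mutant tumours given PBS and 1.26, 2.03, 1.85, 1.92 and 2.36 in those given anti-PD-1. Its mutant anti-PD-1 values all lay below those of mutant PBS tumours, by a narrow margin. The change was -0.42 ± 0.15 (SE, adjusted p = 0.0408), and it did not pass after rescaling (adjusted p = 0.138) or without mutant anti-PD-1 replicate 1 (adjusted p = 0.162), and was kept in 15 of 33 alternative settings.

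The other 5 genes of the group did not pass. Lig1 joins Okazaki fragments during replication. Lig1 measured 27.2, 26.6, 24.8, 27.7 and 27.8 FPKM in vector tumours given PBS and 26.6, 21.5, 28.7, 26.5 and 25.6 in those given anti-PD-1, and 17.2, 24.1, 29.1, 32.5 and 28.3 in mutant tumours given PBS and 8.98, 19.2, 24.5, 24.8 and 29.6 in those given anti-PD-1. Only replicate 1 of mutant anti-PD-1 stood clearly below the mutant PBS range, and the change was -0.42 (adjusted p = 0.111). Lig3 is the partner ligase of XRCC1 and the ligase of mitochondria. Lig3 measured 4.71, 4.61, 5.48, 5.91 and 6.15 FPKM in vector tumours given PBS and 0.363, 5.07, 5.45, 4.88 and 5.29 in those given anti-PD-1, and 5.15, 5.16, 5.37, 5.37 and 5.81 in mutant tumours given PBS and 1.82, 4.13, 5.07, 4.82 and 5.33 in those given anti-PD-1. Its levels were even in 18 tumours and low in replicate 1 of both anti-PD-1 groups, and the change was -0.43 (adjusted p = 0.3). Ogg1 encodes the glycosylase for oxidised guanine. Ogg1 measured 5.43, 8.25, 5.6, 6.9 and 7.64 FPKM in vector tumours given PBS and 6.05, 5.17, 7.45, 10.2 and 7.77 in those given anti-PD-1, and 7.06, 9.09, 5.48, 5.86 and 6.89 in mutant tumours given PBS and 4.96, 4.12, 4.66, 4.95 and 7.11 in those given anti-PD-1. Mutant anti-PD-1 replicates 1 to 4 lay below the mutant PBS range and replicate 5 inside it, and the change was -0.38 (adjusted p = 0.105). Mutyh, which removes adenine paired with oxidised guanine, was at -0.18 (adjusted p = 0.311), and the gap-filling polymerase gene Polb at 0.05 (adjusted p = 0.737).

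End joining had 2 of 4 genes lower. Xrcc6 measured 11.2, 11.5, 13.5, 13.9 and 12.6 FPKM in vector tumours given PBS and 13.6, 9.25, 11.4, 13.6 and 11.9 in those given anti-PD-1, and 11.1, 13.1, 12.2, 14 and 14.4 in mutant tumours given PBS and 3.58, 6.47, 9.93, 8.22 and 11.2 in those given anti-PD-1. Replicates 1, 2 and 4 of mutant anti-PD-1 lay below every other tumour, and only replicate 5 reached the mutant PBS range. Xrcc6 (ENSMUSG00000022471, chromosome 15, 81987835 to 82040085) encodes Ku70, a subunit of the ring that threads onto broken ends, and its change was -0.78 ± 0.18 (SE, adjusted p = 0.00284). It shares 41340 bases with Desi1 on the opposite strand, whose means in mutant tumours were 12.5 FPKM under PBS and 9.44 FPKM under the antibody. Xrcc5, which encodes the other Ku subunit and is not among the 45 genes, changed by -0.99 (adjusted p = 0.000624).

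Xrcc4 encodes the partner of the end-joining ligase. Xrcc4 measured 4.75, 5.08, 5.89, 5.15 and 5.88 FPKM in vector tumours given PBS and 2.75, 5.38, 5.07, 4.18 and 5.89 in those given anti-PD-1, and 5.2, 5.83, 4.37, 6.02 and 6.09 in mutant tumours given PBS and 1.98, 2.85, 4.86, 4.85 and 4.81 in those given anti-PD-1. Replicates 1 and 2 of mutant anti-PD-1 were low, and the other 3 lay inside the mutant PBS range. The change was -0.53 ± 0.15 (SE, adjusted p = 0.0143), at -0.40 without mutant anti-PD-1 replicate 1 (adjusted p = 0.0666). Lig4, that ligase itself, did not pass. Lig4 measured 2.24, 1.93, 2.05, 1.93 and 1.75 FPKM in vector tumours given PBS and 0.815, 1.83, 1.68, 2.21 and 1.9 in those given anti-PD-1, and 2.72, 2.48, 1.94, 2 and 2.23 in mutant tumours given PBS and 1.84, 1.73, 1.44, 1.7 and 1.95 in those given anti-PD-1. Replicate 5 of mutant anti-PD-1 alone reached the mutant PBS range, and the change was -0.25 (adjusted p = 0.161). Prkdc, the DNA-dependent kinase recruited by Ku, was at -0.09 (adjusted p = 0.646).

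**Figure D2:**
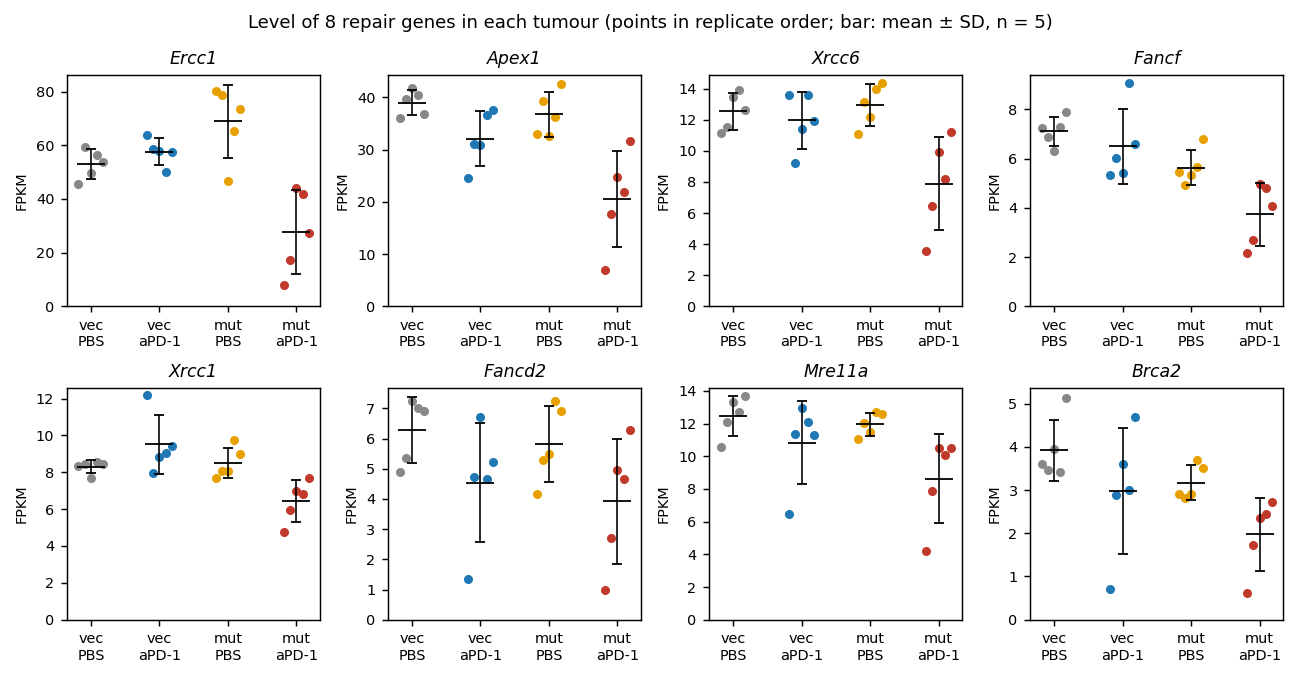
FPKM of 8 repair genes in each of the 20 tumours (points, in the order of replicates 1 to 5), with the mean and SD of each group (bars, n = 5; vec, vector; mut, mutant; aPD-1, anti-PD-1). Ercc1 in mutant anti-PD-1 tumours, at 7.78 to 44.1 FPKM, lies below all other groups, and replicate 1 of both anti-PD-1 groups is low for Fancd2, Mre11a and Brca2.

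Homologous recombination had 3 of 13 genes lower, with a median of -0.28. Mre11a encodes the nuclease that starts to trim a broken end. Mre11a measured 10.6, 12.1, 13.3, 12.7 and 13.7 FPKM in vector tumours given PBS and 6.47, 11.4, 13, 12.1 and 11.3 in those given anti-PD-1, and 11.1, 12, 11.5, 12.7 and 12.6 in mutant tumours given PBS and 4.18, 7.88, 10.5, 10.1 and 10.5 in those given anti-PD-1. Mutant anti-PD-1 tumours lay below all mutant PBS tumours, and vector anti-PD-1 replicate 1 was also low. Mre11a shares 203 bases with Ankrd49 on the opposite strand, whose means in mutant tumours were 5.66 FPKM under PBS and 3.91 FPKM under the antibody. The change of Mre11a was -0.55 ± 0.17 (SE, adjusted p = 0.0209), and it did not pass without mutant anti-PD-1 replicate 1 (-0.35, adjusted p = 0.09), without mutant PBS replicate 2, or within the M-style libraries (-0.88, adjusted p = 0.0552). Its MRN partners did not pass, with Rad50 at -0.29 (adjusted p = 0.223) and Nbn at -0.15 (adjusted p = 0.486).

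Brca2 acts after resection, on the single-stranded DNA of a break. Brca2 measured 3.59, 3.47, 3.96, 3.42 and 5.14 FPKM in vector tumours given PBS and 0.708, 2.89, 3.6, 3.01 and 4.68 in those given anti-PD-1, and 2.91, 2.81, 2.91, 3.69 and 3.5 in mutant tumours given PBS and 0.619, 1.72, 2.36, 2.45 and 2.73 in those given anti-PD-1. The mutant groups did not overlap, and replicate 1 of both anti-PD-1 groups held the lowest values. The change was -0.64 ± 0.21 (SE, adjusted p = 0.0316), and -0.47 without mutant anti-PD-1 replicate 1 (adjusted p = 0.138). Xrcc2 acts in the strand exchange step of recombination. Xrcc2 measured 1.8, 1.88, 2.26, 2.6 and 2.17 FPKM in vector tumours given PBS and 0.651, 1.85, 1.94, 2.29 and 2.17 in those given anti-PD-1, and 1.91, 2.34, 2.31, 2.8 and 2.63 in mutant tumours given PBS and 0.956, 1.42, 1.83, 1.95 and 2.39 in those given anti-PD-1. Replicate 1 was again lowest in both anti-PD-1 groups, and replicates 3 to 5 of mutant anti-PD-1 lay near or in the PBS range. Its change of -0.40 ± 0.15 (SE, adjusted p = 0.0486) was near the threshold and did not pass without mutant anti-PD-1 replicate 1 (adjusted p = 0.17). It was kept in 8 of 33 alternative settings.

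Brca1, which opens the way for resection, passed in the mean over both tumour types and not in mutant tumours alone. Brca1 measured 4.17, 4.44, 6.2, 6.2 and 6.12 FPKM in vector tumours given PBS and 1.68, 4.12, 5.87, 4.53 and 5.75 in those given anti-PD-1, and 4.29, 4.88, 4.99, 6.2 and 6.33 in mutant tumours given PBS and 1.61, 3.27, 5.1, 5.03 and 5.58 in those given anti-PD-1. Both anti-PD-1 groups overlapped their PBS groups. The changes were -0.40 (adjusted p = 0.0446) in the mean and -0.48 (adjusted p = 0.0601) in mutant tumours. The call in the mean was kept in 10 of 33 alternative settings and in neither identifier style. Rad51d, which forms a complex with Xrcc2, hardly varied. Rad51d measured 3.41, 3.23, 3.21, 3.19 and 3.54 FPKM in vector tumours given PBS and 2.96, 3.4, 2.71, 3.81 and 2.91 in those given anti-PD-1, and 3.39, 2.96, 3.33, 3.75 and 3.1 in mutant tumours given PBS and 3.32, 3.69, 3.18, 3.36 and 3.88 in those given anti-PD-1. Its 20 values spanned 2.71 to 3.88 FPKM, and its change in mutant tumours was 0.07 (adjusted p = 0.633). The related genes Rad51b, Rad51c and Xrcc3 were at 0.16, -0.28 and -0.21, the bridge gene Palb2 at -0.08, the DNA translocase gene Rad54l at 0.04 and the helicase gene Blm at -0.39. None of these 6 passed.

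The Fanconi anaemia genes gave 2 lower calls among 10 tested, in the core complex and in its target. Fancf is the adaptor of the core ubiquitin ligase. Fancf measured 7.25, 6.87, 6.3, 7.27 and 7.9 FPKM in vector tumours given PBS and 5.35, 6.02, 5.42, 9.06 and 6.59 in those given anti-PD-1, and 5.46, 4.93, 5.33, 5.66 and 6.78 in mutant tumours given PBS and 2.15, 2.69, 4.96, 4.81 and 4.05 in those given anti-PD-1. All mutant anti-PD-1 tumours lay below all vector tumours, and mutant PBS tumours overlapped both. The fall within mutant tumours was -0.57 ± 0.15 (SE, adjusted p = 0.00931). Fancd2 is the protein that the core complex marks with ubiquitin. Fancd2 measured 4.88, 5.35, 7.25, 7 and 6.92 FPKM in vector tumours given PBS and 1.36, 4.74, 6.73, 4.66 and 5.21 in those given anti-PD-1, and 4.15, 5.3, 5.48, 7.25 and 6.92 in mutant tumours given PBS and 0.994, 2.7, 4.96, 4.66 and 6.27 in those given anti-PD-1. Groups overlapped, with the lowest values in replicate 1 of both anti-PD-1 groups. The change of -0.71 ± 0.24 (SE, adjusted p = 0.0332) was -0.47 without mutant anti-PD-1 replicate 1 (adjusted p = 0.155). Fanci, the partner of Fancd2, was at -0.17 (adjusted p = 0.428).

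Fancg, another core subunit, had a positive estimate. Fancg measured 2.33, 1.89, 2.61, 2.24 and 2.45 FPKM in vector tumours given PBS and 0.813, 1.84, 2.33, 1.75 and 2.85 in those given anti-PD-1, and 2.2, 1.64, 2.91, 2.37 and 2.7 in mutant tumours given PBS and 4.5, 3.35, 2.64, 3.01 and 2.96 in those given anti-PD-1. Replicates 1, 2 and 4 of mutant anti-PD-1 were the highest of the study, the other 2 lay inside the mutant PBS range or just above it, and the change in mutant tumours of 0.33 (adjusted p = 0.154) did not pass. Fancm, the translocase that anchors the core complex, passed only in the mean over tumour types, at -0.30 (adjusted p = 0.048), a call kept in 8 of 33 alternative settings and lost after rescaling (adjusted p = 0.0551) and in both identifier styles. Fancm measured 1.55, 1.51, 1.86, 1.86 and 1.77 FPKM in vector tumours given PBS and 0.427, 1.36, 1.84, 1.01 and 1.65 in those given anti-PD-1, and 0.948, 1.86, 1.44, 1.76 and 1.52 in mutant tumours given PBS and 0.763, 1.03, 1.03, 1.2 and 1.58 in those given anti-PD-1. All groups overlapped. Fance is a core subunit that binds FANCD2. Fance measured 2.68, 2.93, 3.05, 3.22 and 3.02 FPKM in vector tumours given PBS and 2, 2.29, 3.52, 3.19 and 2.68 in those given anti-PD-1, and 2.99, 2.88, 2.28, 2.95 and 2.77 in mutant tumours given PBS and 1.9, 2.54, 2.64, 2.53 and 2.27 in those given anti-PD-1. All mutant anti-PD-1 tumours lay below all vector PBS tumours, the mutant groups overlapped, and the change in mutant tumours was -0.19 (adjusted p = 0.204). Of the rest, Fanca was at 0.13, the ubiquitin ligase gene Fancl at -0.04, the helicase gene Brip1 at -0.39 and the nuclease scaffold gene Slx4 at -0.29, none past the threshold.

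Translesion synthesis had no call. Polh encodes the polymerase that copies past ultraviolet dimers. Polh measured 7.85, 7.42, 8.53, 8.12 and 8.63 FPKM in vector tumours given PBS and 3.53, 7.33, 8.22, 8.41 and 7.87 in those given anti-PD-1, and 6.43, 7.39, 7.57, 7.8 and 8.54 in mutant tumours given PBS and 3.33, 4.71, 6.73, 6.91 and 7.64 in those given anti-PD-1. Replicates 1 and 2 of mutant anti-PD-1 and replicate 1 of vector anti-PD-1 were low, and the change in mutant tumours was -0.42 (adjusted p = 0.0679). Rev3l, the catalytic subunit of polymerase zeta, was at 0.04 (adjusted p = 0.87). limma thus called 0 of 2 genes, with 1 at an unadjusted p under 0.05.

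Under anti-PD-1, mutant tumours were then compared with vector tumours. Fancf, Ercc1, Xrcc1, Xrcc6 and Apex1 were lower and Fancg was higher, 6 of 44 repair genes or 13.6%, while 32.9% of all tested genes passed (17.8% higher, 15.1% lower). The changes were -0.73 ± 0.15 (SE, adjusted p = 0.00155) in Fancf, -1.34 (adjusted p = 0.00179) in Ercc1, -0.53 (adjusted p = 0.00191) in Xrcc1, -0.67 (adjusted p = 0.00715) in Xrcc6, -0.82 (adjusted p = 0.012) in Apex1 and 0.57 (adjusted p = 0.0165) in Fancg. Ercc1, Xrcc1 and Fancf had no overlap between these groups, and Xrcc6, Apex1 and Fancg overlapped. The share of all tested genes without overlap was not counted. Without vector anti-PD-1 replicate 1 the count was 14. Within the M-style libraries the same 6 genes passed, and within the others Ercc1, Xrcc1 and Brca2 passed. Fancg lost its call there (0.11, adjusted p = 0.485), as it did without mutant anti-PD-1 replicate 1 (0.43, adjusted p = 0.073).

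The responses of the 2 tumour types to the antibody were compared by an interaction term. Ercc1 and Xrcc1 responded differently, where 9.35% of all tested genes passed, 7.4% with a higher and 1.95% with a lower response in mutant tumours. Ercc1 differed by -1.70 ± 0.41 (SE, adjusted p = 0.0153) and Xrcc1 by -0.56 ± 0.16 (SE, adjusted p = 0.0371). The count was 1 without any 1 of vector PBS replicates 1, 3, 4 and 5, mutant PBS replicates 1, 2, 4 and 5, or mutant anti-PD-1 replicates 1 and 2. Xrcc1 was at 0.17 in vector and -0.39 in mutant tumours. Its highest value was 12.2 FPKM in vector anti-PD-1 replicate 1, and the difference was -0.46 without that library (adjusted p = 0.0161). The Xrcc1 difference did not pass within either identifier style (adjusted p = 0.136 and 0.0608), nor after rescaling (adjusted p = 0.12), and the Ercc1 difference passed within M-style libraries (-2.57) and not within the others (-0.96, adjusted p = 0.07). For Apex1 the difference was -0.73 (adjusted p = 0.161) and for Xrcc6 -0.71 (adjusted p = 0.0729), so a response particular to mutant tumours was not shown for these genes.

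Averaged over the treatments, Fancf at -0.51 ± 0.11 (SE, adjusted p = 0.00228) and Xrcc1 at -0.25 (adjusted p = 0.0298) were lower in mutant tumours, 2 of 44 where 24.7% of all tested genes passed (11.1% lower). The count was 8 without vector anti-PD-1 replicate 1, 6 without mutant anti-PD-1 replicate 5, and 4 without vector PBS replicate 5 or mutant anti-PD-1 replicate 3. Leaving out mutant PBS replicate 1, mutant anti-PD-1 replicate 2, or either of replicates 1 and 2 of vector PBS gave 1. Averaged over the tumour types, 11 genes were lower under anti-PD-1, or 25%, where 18.6% of all tested genes passed (8.43% lower). These were Apex1, Ercc1, Fancd2, Xrcc6, Brca2, Xrcc4, Fancf, Mre11a, Brca1, Fancm and Xrcc2, led by Ercc1 at -0.73 (adjusted p = 0.0192), which did not pass after rescaling (adjusted p = 0.0523), and Apex1 at -0.65 (adjusted p = 0.0116). That count fell to between 5 and 7 without vector PBS replicate 1, 2 or 3, vector anti-PD-1 replicate 5, mutant PBS replicate 1, 2 or 5, or mutant anti-PD-1 replicate 2, and to 4 without mutant anti-PD-1 replicate 1. Within M-style libraries 3 genes passed in this mean, and within the others 3.

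A second list held 76 other genes of the same pathways, such as glycosylases, nucleases, TFIIH subunits and end-joining factors, and 75 were tested. In mutant tumours under anti-PD-1, 15 of them were lower and 1 was higher, where 14.6% of all tested genes were lower and 15.9% higher, and the median was -0.21 beside -0.10 over all genes. Xrcc5, the second Ku gene, was the leading call at -0.99 (adjusted p = 0.000624), with Rpa3, a subunit of the single-strand binding protein, at -0.80 (adjusted p = 0.00221). Ube2t, the conjugating enzyme of the Fanconi pathway, was at -0.73 (adjusted p = 0.00315) and Sfr1, a recombination factor, at -0.55 (adjusted p = 0.00493). The 1 rise was in Dclre1c, the hairpin-opening nuclease Artemis, at 0.74 (adjusted p = 0.0108), and its response also differed between tumour types (0.95, adjusted p = 0.045). By pathway the lower calls were 6 of 23 in homologous recombination, 2 of 6 in the Fanconi group, 4 of 17 in nucleotide excision, 1 of 15 in base excision, 1 of 9 in end joining and 1 of 5 in translesion synthesis. Between the tumour types under anti-PD-1, 15 were lower and 2 higher, where 15.1% of all tested genes were lower and 17.8% higher, again led by Xrcc5 (-1.30, adjusted p = 4.72e-05). Under PBS the single difference was a lower level of Cetn2, a partner of XPC, in mutant tumours (-0.58, adjusted p = 0.0385), and in vector tumours limma called 0 of 75 under anti-PD-1, with 0 at an unadjusted p under 0.05.

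Many repair genes are made mainly in dividing cells, so the genes were also set against a mitosis index. The index is the mean log2(FPKM + 1) of 26 genes of the mitotic apparatus such as Mki67, Plk1 and Aurkb, and it holds none of the 45 repair genes. It is a measure of transcripts and not a count of dividing cells. Without the antibody the index was 4.73 ± 0.07 in vector and 4.37 ± 0.27 in mutant tumours, and with it 4.43 ± 0.26 and 4.03 ± 0.73 (SD, n = 5 each). Mutant anti-PD-1 replicates 1 and 2 were lowest, at 2.88 and 3.78, while replicate 5 of the same group stood at 4.74, within the vector PBS range.

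Within groups, 14 of 44 repair genes rose with the index and none fell, 31.8% where 12.5% of all tested genes passed (10.1% with a positive slope). Slopes are in log2 units of the gene per unit of the index. Fancd2 at 0.97 ± 0.17 (SE, adjusted p = 0.00134) and Apex1 at 0.97 ± 0.14 (SE, adjusted p = 0.000376) moved nearly in step with it, and Lig1 at 0.77 (adjusted p = 0.00153) came next among the calls. The others were Brca1, Brip1, Blm, Mre11a, Polh, Rad50, Xrcc6, Fanci, Nbn, Fanca and Xrcc4, between 0.46 and 0.66. By pathway the calls were 5 of 13 in homologous recombination, 4 of 10 in the Fanconi group, 2 of 8 in base excision, 2 of 4 in end joining and 1 of 2 in translesion synthesis. In nucleotide excision limma called 0 of 7, with 2 at an unadjusted p under 0.05. All 3 MRN genes were among the calls, and none of Rad51b, Rad51c, Rad51d, Xrcc2 and Xrcc3 was.

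**Figure D3:**
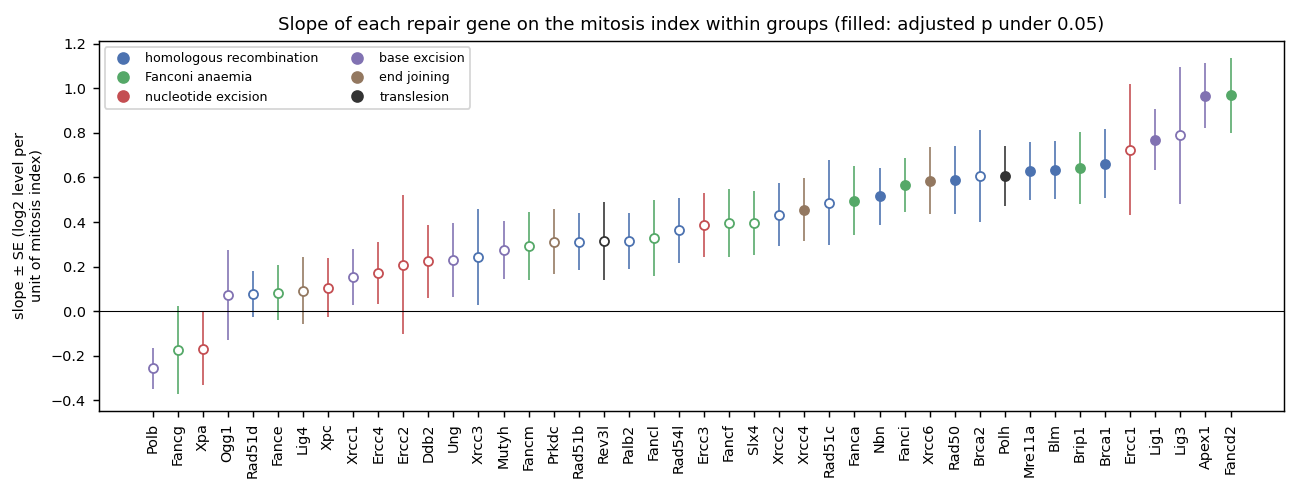
Slope of each of the 44 tested repair genes on the mitosis index within groups (points, with the SE as bars), in order of size and coloured by pathway. The 14 filled points passed an adjusted p of 0.05 and all lie above zero, from 0.46 in Xrcc4 to 0.97 in Fancd2.

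Slopes that did not pass included large ones. Lig3 had a slope of 0.79 ± 0.31 (SE, adjusted p = 0.0991), as large as that of Lig1 but with a larger error, and Ercc1 one of 0.72 ± 0.29 (SE, adjusted p = 0.114). Slopes near zero were those of Ogg1 (0.07), Rad51d (0.08), Fance (0.08) and Lig4 (0.09), and Polb, Fancg and Xpa had negative ones of -0.26, -0.17 and -0.17 that did not pass. The median slope was 0.38 over the repair genes and 0.14 over all genes, and 0.27 and 0.00 after rescaling, when 8 of the 14 calls remained. Of the 75 other repair genes tested, 21 rose with the index, among them the glycosylase gene Neil3 (1.08), Ube2t (0.67) and the ubiquitin ligase gene Rad18 (0.87), and 1 fell, the glycosylase gene Neil1 (-0.32).

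Of the other markers 3 of 5 neutrophil and 1 of 6 endothelial genes fell as the index rose, and their part in the slopes was not tested. The slope calls leaned on a few libraries. Where no share of all tested genes stands beside these counts, their changes may not be particular to repair genes. Without mutant anti-PD-1 replicate 1, the tumour with the lowest index, 1 call was left, Fancd2, and the median slope of the repair genes was 0.50. Without vector anti-PD-1 replicate 1 the count was 25, with 24 positive slopes and a negative one in Polb. Within M-style libraries and within the others limma called 0 repair genes and 0 of all genes, with medians of 0.55 and 0.28. Without all 3 libraries that stood apart, 6 slopes were positive (Fanca, Fanci, Fancl, Lig1, Rad50 and Rad54l) and that of Ercc1 was negative. With an index of 22 S phase genes in place of the mitotic ones, 21 slopes passed, all positive, where 14.2% of all tested genes passed (12.7% positive, 1.49% negative).

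**Figure D4:**
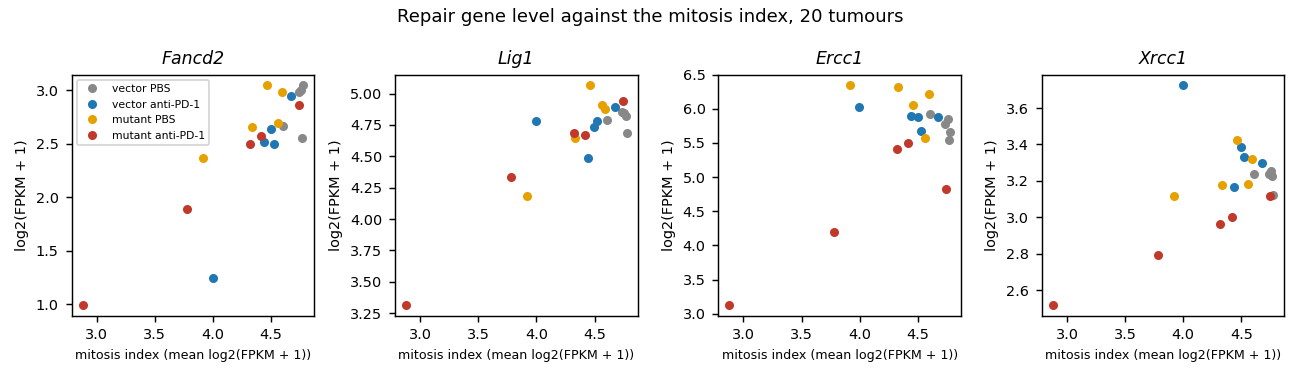
Level of 4 repair genes, as log2(FPKM + 1), against the mitosis index in the 20 tumours, coloured by group. Fancd2 and Lig1 are low where the index is low, at the left edge in mutant anti-PD-1 replicate 1 (index 2.88), and Ercc1 is low in the mutant anti-PD-1 tumours at high index as well.

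The group comparisons were repeated with the index as a term. In mutant tumours under anti-PD-1, 3 of the 11 lower calls remained, and 18.5% of all tested genes passed (6.28% lower). They were Ercc1 at -1.26 (adjusted p = 0.00429), Apex1 at -0.60 (adjusted p = 0.00576) and Xrcc6 at -0.53 (adjusted p = 0.0151). Fancd2 went from -0.71 to -0.30 (adjusted p = 0.228), Mre11a from -0.55 to -0.28 (adjusted p = 0.137) and Brca2 from -0.64 to -0.37 (adjusted p = 0.216). Fancf was at -0.40 (adjusted p = 0.067) and Xrcc1 at -0.33 (adjusted p = 0.0707), just outside the threshold. The median of the repair genes became -0.11, beside -0.03 over all genes. Most slope calls were lost without mutant anti-PD-1 replicate 1, itself a tumour of this comparison. The comparison with the index as a term was not repeated without that library. The part of dividing cells in these changes was therefore not tested.

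Between the tumour types under anti-PD-1, Ercc1 (-0.99, adjusted p = 0.0203), Fancf (-0.54, adjusted p = 0.0158) and Xrcc1 (-0.46, adjusted p = 0.014) stayed lower and Fanca (0.49, adjusted p = 0.0295) passed as higher, where 22.9% of all tested genes passed (14% higher and 8.86% lower). The interaction then passed for Ercc1 (-1.60, adjusted p = 0.0117), Xrcc1 (-0.54, adjusted p = 0.0315), Xrcc6 (-0.64, adjusted p = 0.0323) and Apex1 (-0.60, adjusted p = 0.0352), where 12.3% of all tested genes did (8.91% higher, 3.37% lower). Averaged over the treatments Fancf was lower (-0.35, adjusted p = 0.0478) and Ercc3 higher (0.39, adjusted p = 0.0195) in mutant tumours, where 14.3% of all tested genes passed (9.51% higher, 4.82% lower). Averaged over tumour types limma called 0 repair genes under anti-PD-1, where 7.25% of all tested genes passed (6.23% higher, 1.02% lower). With the T cell score as a term instead, limma called 0 repair genes in each of the 7 comparisons. Of all tested genes it then called 199 between the tumour types under PBS, 12 between them averaged over the treatments and 0 in the other 5 comparisons. That score did not overlap between mutant anti-PD-1 tumours and the other groups, so the antibody response and the T cell content of these tumours cannot be told apart in that fit.

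**Figure D5:**
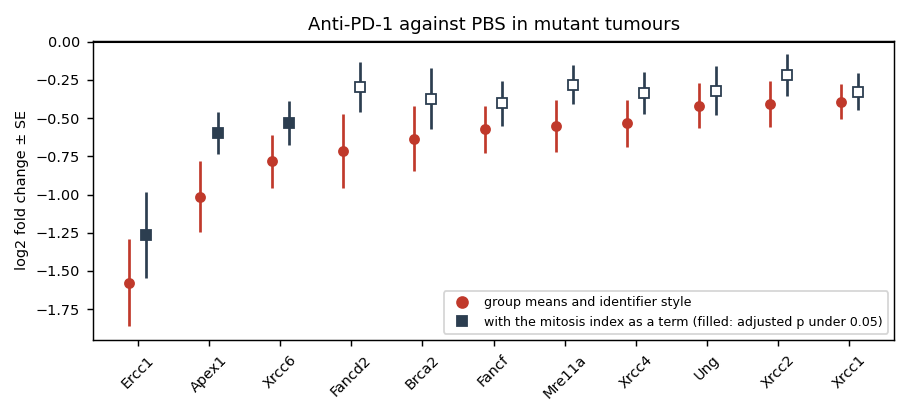
Log2 fold change (with the SE as bars) of the 11 repair genes that were lower in mutant tumours under anti-PD-1, without the mitosis index (circles) and with it as a term (squares, filled where the adjusted p was under 0.05). Ercc1, Apex1 and Xrcc6 stay past the threshold, at -1.26, -0.60 and -0.53.

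The promoters of these genes were read because many of them moved with the index together. RefSeq promoter windows of GRCm38.p6 matched 34 of the 45 genes, including 11 of the 14 that followed the index, and 250 bases before the start were searched on both strands for 4 motifs. The E2F letters TTCCCGC or TTGGCGC, the kind of site bound by factors of S phase entry, were in 8 of 34 windows (23.5%) against 5.6% of 32851 windows of all genes. They were in 3 of 11 windows of genes that followed the index and in 5 of 23 of the others. CCAAT boxes (CCAAT), bound by NF-Y, were in 20 of 34 (58.8%) against 33.8%, with 6 of 11 and 14 of 23. The CHR letters TTTGAA, typical of mitotic genes, were in 0 of 34 against 5252 of 32851, and the palindromic NRF1 motif in 2 of 34 (5.9%) against 0.8%. A match describes letters and not a bound site. Each repair gene was counted once, by its first listed start, whereas the 32851 windows take in every listed start of every gene, tested or not. The 2 sides of these shares are therefore not counted alike. The base composition of the windows was not compared.

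Brca2, Brca1 and Brip1 are shown because their levels moved with anti-PD-1 or with the index and their windows hold an E2F match, 1 CCAAT box and 3 CCAAT boxes. Each is written 5′ to 3′ on the strand of the gene up to the base before the start, without bases of annotated exons, and capitals mark the matches, which for Brca2 and Brip1 are on the opposite strand. They lie at chr5:150522371-150522620 (plus strand) for Brca2, chr11:101551956-101552148 (minus strand) for Brca1 and chr11:86201194-86201369 (minus strand) for Brip1, upstream of each gene's start.
Brca2: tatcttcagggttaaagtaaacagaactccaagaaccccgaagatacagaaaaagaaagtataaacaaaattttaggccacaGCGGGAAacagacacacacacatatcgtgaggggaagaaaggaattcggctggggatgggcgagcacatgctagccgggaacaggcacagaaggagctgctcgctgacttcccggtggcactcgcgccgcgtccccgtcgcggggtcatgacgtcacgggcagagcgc
Brca1: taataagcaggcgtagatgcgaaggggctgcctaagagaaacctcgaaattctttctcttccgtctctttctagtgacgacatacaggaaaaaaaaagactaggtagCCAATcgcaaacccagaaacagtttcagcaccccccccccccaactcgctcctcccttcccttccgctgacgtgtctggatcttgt
Brip1: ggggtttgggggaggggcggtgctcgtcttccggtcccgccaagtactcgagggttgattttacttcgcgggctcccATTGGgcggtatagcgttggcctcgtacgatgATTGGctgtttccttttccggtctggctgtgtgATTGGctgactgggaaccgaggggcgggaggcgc
The E2F match of Brca2 lies 168 bases before its start, the CCAAT box of Brca1 at 86 and those of Brip1 at 99, 67 and 34. Brca2 fell in mutant tumours under anti-PD-1, and its slope on the index of 0.61 (adjusted p = 0.0633) was near those of Brca1 (0.66) and Brip1 (0.64) and did not pass.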

How the data were processed

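The deposited values are FPKM per gene in 20 libraries, made by the authors. The submitters' processing notes name STAR 2.5, Cuffnorm, DESeq, FastQC and the mm10 build, without role or order. Depth is unknown: a search for whole reads found 28.4 to 35.6% of low-value ratios within 5% of whole numbers, so no counts were recovered. Genes reaching 1 FPKM in 5 or more libraries (13982) were fitted with limma 3.58.1 in R 4.3.3 on log2(FPKM + 1), a scale that understates changes of low genes, with terms for the 4 groups and for the identifier style. P-values were adjusted over all tested genes by Benjamini-Hochberg at 0.05. They measure the spread between tumours. Symbols and coordinates came from GENCODE M21. The fit was tested on simulated data with independent noise for each gene and no outlying library. That test does not cover the effect of the libraries that stood apart. The members and lists were chosen with earlier results of these data known. Values in every tumour are given, per pathway, for up to 4 genes past the threshold (or that with the smallest p), and for the 4 largest and 4 smallest slopes. Of other repair genes up to 4 per comparison are named. Alternatives covered the pseudocount, filter, scaling, weights, terms, styles and each library left out.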

Additional observations from a re-analysis of the deposited data

Results flagged for a closer look

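Of 84 groups of 5 values (21 repair genes in 4 groups), 6 held a value far from the other 4 by Dixon's test, and chance gives about 1 in 20 groups. The flagged values in vector anti-PD-1 replicate 1, each the lowest of its group, were those of Mre11a (6.47 FPKM), Xrcc2 (0.651 FPKM), Polh (3.53 FPKM) and Lig3 (0.363 FPKM). Among vector PBS tumours Xrcc1 was lowest in replicate 3 at 7.70 FPKM, and the nearest other tumour of that group had 8.36. Among mutant anti-PD-1 tumours Ogg1 was highest in replicate 5 at 7.11 FPKM, and the nearest other tumour of that group had 4.96. The response to anti-PD-1 differed between the tumour types, by the interaction term in limma, for Ercc1 at -1.70 (adjusted p = 0.0153) and Xrcc1 at -0.56 (adjusted p = 0.0371) on the log2 scale.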

How the results depend on the processing

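No paired analysis was possible because the replicate numbers follow accession order and only name tumours. With 1 library left out, repair genes called ran from 0 to 0 for mutant against vector under PBS, 5 to 14 under anti-PD-1, 0 to 0 for anti-PD-1 in vector and 4 to 23 in mutant tumours, 1 to 3 for the interaction, 1 to 8 for the mean genotype difference, 4 to 13 for the mean treatment difference and 1 to 25 for the slope on the mitosis index, against 0, 6, 0, 11, 2, 2, 11 and 14. Under PBS, array weights gave 4 and leaving out the 3 libraries that stood apart 1. Under anti-PD-1, weights gave 11, number-only libraries 3 and the T cell term 0. For anti-PD-1 in mutant tumours, counts were 7 with no filter, 6 without the style term, 20 with weights, 5 and 7 in M-style and number-only libraries, 6 without the 3 libraries, and 3, 4 and 0 with the mitosis, muscle and T cell terms. For the interaction they were 1 without the style term, 4 with weights, 1 and 0 within styles, 1 without the 3 libraries, 4 with the mitosis and 0 with the T cell term. For the mean genotype difference they were 1 without the style term, 10 with weights, 4 and 0 within styles, 6 without the 3 libraries, 1 with muscle and 0 with the T cell term. For the mean treatment difference they were 5 with no filter, 2 without the style term, 7 rescaled, 3 within each style, 4 without the 3 libraries and 0 with each of the mitosis, muscle and T cell terms. For the slope they were 27 without the style term, 8 rescaled, 0 within each style and 7 without the 3 libraries. Shares of all tested genes are not set beside these counts, so their changes may not be particular to repair genes. The cause was not tested. Signs turned for Fancg under anti-PD-1 with the T cell term (-0.21), and in the slopes of Nbn (-0.0197) and Xrcc4 (-0.16) in number-only libraries and of Xrcc4 without the 3 libraries (-0.15). Of 46 calls on single genes, 12 were kept in at least 30 of 33 alternatives and 7 were lost in more than 50% of them. Read depth is unknown, so no counting error could be given for genes near 1 FPKM.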
